A study of Mus musculus with 9 samples.

Results

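The genes described here are 10 late neutrophil genes: Camp, Ngp, Ltf, Lcn2, Mmp8, Chil3, Itgb2l, Ifitm6, S100a8 and S100a9. They were chosen by name, as genes of the secondary granule and of late neutrophil maturation, out of 12393 genes with a probe set of their own. They were picked because several of them were higher in the Foxp3-cre arrays of this study, so every comparison that holds those arrays is given for them as a description, without a test. Each of the 10 had 1 probe set of its own. All 10 entered the fit, which kept genes whose mean log2 signal over the 9 arrays was at least 4.979, the 40th percentile. Itgb2l entered through its knockout arrays, since its wild type mean was 4.71.

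Neutrophils are short-lived white blood cells that make their granules in order while they mature in the bone marrow. Proteases and myeloperoxidase are packed first into primary granules, and antimicrobial and iron-binding proteins such as lactoferrin later into secondary granules, under control of C/EBP-family transcription factors. Regulatory T cells, which restrain other immune cells, are not known for making these proteins.

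RNA came from mouse (C57BL6) CD4+CD25+ regulatory T cells, separated with magnets, with 3 arrays in each of 3 groups. Wild type mice were compared with mice in which Sirt1 was knocked out conditionally by Cre recombinase under either of 2 drivers, CD4 (the CD4-cre group) or Foxp3 (the Foxp3-cre group). The CD4 driver acts in CD4-expressing T cells and their precursors and the Foxp3 driver in regulatory T cells, Sirt1 encodes a protein deacetylase, and all groups share the strain. The organ the cells came from, the ages of the mice and any pooling were not stated. The values are log2 signals, on which a difference of 1 is a doubling, and limma's fit over the 9 arrays gave the standard errors (SE) and the Benjamini-Hochberg adjusted p-values. The labels do not say that arrays of a group came from separate animals, so a p-value reflects only how far these samples scatter, and part of that scatter may be technical.

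The labelled cell type was checked against markers. The 10 tested T cell genes averaged between 10.48 and 10.66 on the 9 arrays. Foxp3, the defining transcription factor of regulatory T cells, averaged 9.39 ± 0.26 (SD, n = 3) in wild type and 9.66 ± 0.04 (SD, n = 3) in CD4-cre arrays, but was 2.67, 3.38 and 2.83 in the Foxp3-cre arrays. The defining marker was thus near the bottom of the scale in the Foxp3-cre group. Il2ra, the CD25 gene used in the separation, averaged 8.60 ± 0.16 (SD, n = 3) there against 8.48 ± 0.09 (SD, n = 3) in wild type. Over the 11 tested regulatory T cell genes, Foxp3 and Il2ra included, the median Foxp3-cre minus wild type difference was 0.06, with 6 higher. The cause of the low Foxp3 signal was not tested. Array medians lay between 5.37 and 5.45. Wild type replicate 2 had a 5' minus 3' actin difference of -1.53, against -0.68 to -0.45 on the other arrays.

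To show what the promoters of these genes share, the 150 bases before the annotated start were read from RefSeq (GRCm38.p6), 5′ to 3′ on the strand of the gene. Capitals mark TTNNGNAA, a core of C/EBP sites, or its reverse complement TTNCNNAA. Ngp (chr9:110419658-110419807, plus strand) and Chil3 (chr3:106167565-106167714, minus strand) hold 3 matches each. Ltf (chr9:111019142-111019291, plus), S100a8 (chr3:90668921-90669070, plus) and S100a9 (chr3:90695722-90695871, minus) hold 1 each, and Camp (chr9:109849457-109849606, minus) is shown as a member without a match.
Ngp: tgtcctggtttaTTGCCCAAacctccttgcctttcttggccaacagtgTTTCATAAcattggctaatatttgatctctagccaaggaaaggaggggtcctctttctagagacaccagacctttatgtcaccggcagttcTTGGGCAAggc
Ltf: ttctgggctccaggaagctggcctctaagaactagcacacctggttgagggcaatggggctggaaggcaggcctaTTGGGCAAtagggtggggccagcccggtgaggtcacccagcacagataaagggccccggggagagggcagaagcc
Chil3: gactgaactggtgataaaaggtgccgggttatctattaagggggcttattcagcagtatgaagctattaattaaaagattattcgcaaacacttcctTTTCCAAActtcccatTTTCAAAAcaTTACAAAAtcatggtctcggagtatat
S100a8: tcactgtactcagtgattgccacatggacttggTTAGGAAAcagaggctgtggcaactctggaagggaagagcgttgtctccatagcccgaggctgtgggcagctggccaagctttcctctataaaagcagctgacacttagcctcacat
S100a9: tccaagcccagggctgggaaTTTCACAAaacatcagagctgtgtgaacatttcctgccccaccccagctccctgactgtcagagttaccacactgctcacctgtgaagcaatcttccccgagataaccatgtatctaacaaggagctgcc
Camp: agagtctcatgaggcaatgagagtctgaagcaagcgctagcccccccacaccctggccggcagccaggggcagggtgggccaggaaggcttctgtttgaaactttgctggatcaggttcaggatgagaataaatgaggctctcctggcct

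The core was found in 7 of the 10 members, Mmp8 and Ifitm6 being the other two, and in 22.7% of all 32851 promoter windows of this length. GAGGAA or its reverse complement TTCCTC, a core of PU.1 sites, was found in 3 members (Lcn2, Itgb2l and S100a8) and in 14.5% of windows. TATAAA or its reverse complement TTTATA was found in 2 members (Ifitm6 and S100a8) and in 7.57% of windows. None of these matches overlapped another in the members' windows. A match describes letters in this window and was not tested as a binding site.

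The 10 genes were higher in Foxp3-cre than in wild type arrays by a median of 2.28 on the log2 scale (4.86-fold), from 0.84 for S100a8 to 2.55 for Chil3. All 3 Foxp3-cre arrays lay above all 3 wild type arrays for 10 of 10 members, against 11.1% of the 7436 genes tested, and 51.1% of those genes had a higher mean. Since this comparison chose the members, nothing is read from these counts. The median of all genes tested was 0.006. In bulk RNA, a different number of cells of a type and a different amount of RNA per cell cannot be told apart. CD4-cre means lay between those of the other groups for 9 members, with a median difference from wild type of 0.81 (1.76-fold) beside 0.026 for all genes tested.

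**Figure D1:**
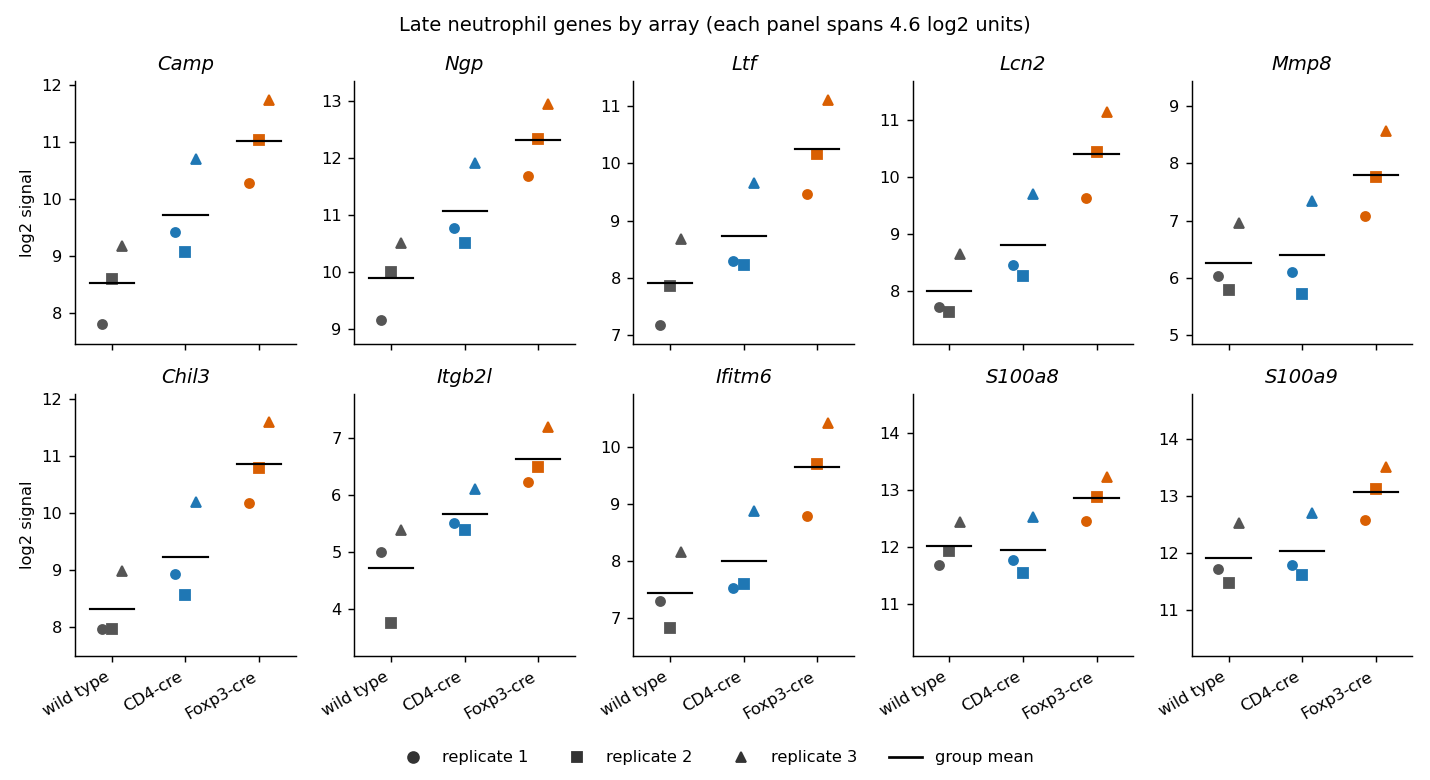
Log2 signal of each of the 10 late neutrophil genes on each of the 9 arrays, by group, with the group mean. The Foxp3-cre arrays are above the wild type arrays in every panel, and replicate 3 is the highest array of each group.

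Among the antimicrobial proteins of the secondary granule, Camp, which encodes the precursor of the mouse cathelicidin peptide, had signals of 7.81, 8.60 and 9.18 in wild type, 9.42, 9.07 and 10.70 in the CD4-cre group and 10.28, 11.03 and 11.73 in the Foxp3-cre group. Wild type and Foxp3-cre arrays did not overlap, while CD4-cre replicate 3 lay above Foxp3-cre replicate 1 and CD4-cre replicate 2 below wild type replicate 3. The Foxp3-cre mean of Camp exceeded the wild type mean by 2.49 (SE 0.50), a 5.61-fold difference.

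Ngp, neutrophilic granule protein, is a cathelicidin relative whose gene lies on chromosome 9, as do those of Camp, Ltf and Mmp8. Its signals read 9.16, 10 and 10.52 in wild type, 10.78, 10.52 and 11.92 in the CD4-cre group and 11.68, 12.34 and 12.94 in the Foxp3-cre group. Ngp was the only member with all CD4-cre arrays above all wild type arrays, by less than the printed decimals at the boundary. Its Foxp3-cre mean exceeded the wild type mean by 2.43 (SE 0.45), which is 5.37-fold.

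Ltf and Lcn2 encode lactoferrin, which binds iron, and lipocalin 2, which binds the siderophores with which bacteria take up iron. Ltf signals read 7.17, 7.85 and 8.68 in wild type, 8.30, 8.23 and 9.65 in the CD4-cre group and 9.47, 10.17 and 11.12 in the Foxp3-cre group. Lcn2 signals read 7.73, 7.63 and 8.66 in wild type, 8.47, 8.27 and 9.70 in the CD4-cre group and 9.63, 10.45 and 11.14 in the Foxp3-cre group. In both genes wild type replicate 3 lay above CD4-cre replicates 1 and 2. The Foxp3-cre minus wild type difference was 2.35 (SE 0.52) for Ltf and 2.40 (SE 0.46) for Lcn2.

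Mmp8, the neutrophil collagenase, had signals of 6.03, 5.79 and 6.95 in wild type, 6.10, 5.72 and 7.35 in the CD4-cre group and 7.08, 7.76 and 8.57 in the Foxp3-cre group. Here wild type and CD4-cre arrays covered nearly the same range, and the Foxp3-cre mean was 1.54 (SE 0.49) above that of wild type. Chil3 encodes a chitinase-like protein (Ym1) without chitinase activity that alternatively activated macrophages also make. Its signals read 7.97, 7.97 and 8.98 in wild type, 8.92, 8.56 and 10.19 in the CD4-cre group and 10.18, 10.78 and 11.60 in the Foxp3-cre group.

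Chil3 had the largest Foxp3-cre minus wild type difference of the 10, 2.55 (SE 0.48) or 5.85-fold. A further probe set is annotated to both Chil4 and Chil3 and is counted for neither. It averaged 7.18, 7.99 and 9.73 in wild type, CD4-cre and Foxp3-cre arrays, the order seen for Chil3. The probe set of Chil4 alone stayed between 2.99 and 3.86 on all arrays.

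Itgb2l encodes an integrin beta chain found on neutrophils, and Ifitm6 a member of the interferon-induced transmembrane family. Itgb2l signals read 4.99, 3.75 and 5.38 in wild type, 5.51, 5.38 and 6.10 in the CD4-cre group and 6.22, 6.48 and 7.18 in the Foxp3-cre group. Ifitm6 signals read 7.30, 6.83 and 8.16 in wild type, 7.52, 7.59 and 8.88 in the CD4-cre group and 8.79, 9.70 and 10.42 in the Foxp3-cre group. Itgb2l was the member in which all Foxp3-cre arrays lay above all CD4-cre arrays, while Ifitm6 had CD4-cre replicate 3 above Foxp3-cre replicate 1. Foxp3-cre exceeded wild type by 1.92 (SE 0.40) for Itgb2l and 2.21 (SE 0.50) for Ifitm6.

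S100a8 and S100a9 encode the subunits of calprotectin, a calcium- and zinc-binding protein abundant in the neutrophil cytosol and also made by monocytes. S100a8 signals read 11.68, 11.93 and 12.44 in wild type, 11.78, 11.54 and 12.52 in the CD4-cre group and 12.46, 12.88 and 13.23 in the Foxp3-cre group. S100a9 signals read 11.72, 11.48 and 12.53 in wild type, 11.79, 11.62 and 12.70 in the CD4-cre group and 12.59, 13.12 and 13.51 in the Foxp3-cre group. The groups were closer for this pair than for the granule genes, with Foxp3-cre minus wild type differences of 0.84 (SE 0.29) and 1.16 (SE 0.35). Both were near the top of the scale, the highest value of any probe set on an array being 13.89 to 14.06.

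CD4-cre against wild type is the only pair of groups without the Foxp3-cre arrays, though it shares the wild type arrays with the comparison that chose the members. Of the 10 members, 9 had a higher mean in CD4-cre and 1, S100a8, a lower one, where 56.3% of all genes tested had a higher mean. limma called 0 of the 10 at an adjusted p below 0.05, against 0.659% of all genes tested (0.229% called higher), with adjusted p from 0.296 to 0.929. Before adjustment 3 members had a limma p below 0.05, 1 of which, Itgb2l, had passed the filter only through its knockout arrays. Among all genes tested, 1047 of 7436 had a limma p below 0.05, so nothing is read from that count. All CD4-cre arrays lay above all wild type arrays for 1 of 10 members, beside 11.8% of all genes tested.

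The members with the smallest p in that comparison were Ngp, Camp and Itgb2l. Ngp was 1.18 higher (SE 0.45, 95% interval 0.16 to 2.20, limma adjusted p = 0.296). Camp was 1.2 higher (SE 0.50, interval 0.07 to 2.32, limma adjusted p = 0.33), while the 0.96 (SE 0.40) of Itgb2l is given as a value only, because of the filter. None of these passed the threshold in this fit. Ngp passed it with the replicate number as a block (limma adjusted p = 0.045), though the numbers were not taken to pair these groups. The iron-binding genes differed by 0.83 (Ltf, interval -0.35 to 2.01) and 0.80 (Lcn2, interval -0.24 to 1.85), and Chil3 by 0.92 (interval -0.16 to 1.99).

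The remaining members were near wild type, with wide intervals. Ifitm6 differed by 0.57 (interval -0.55 to 1.69), Mmp8 by 0.13 (interval -0.97 to 1.24), S100a9 by 0.13 (interval -0.67 to 0.92) and S100a8 by -0.07 (interval -0.72 to 0.58). A doubling lies within the intervals of Ifitm6 and Mmp8 and outside those of the calprotectin subunits. Without CD4-cre replicate 3 the median over the members was 0.36, and without wild type replicate 3 it was 1.17.

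**Figure D2:**
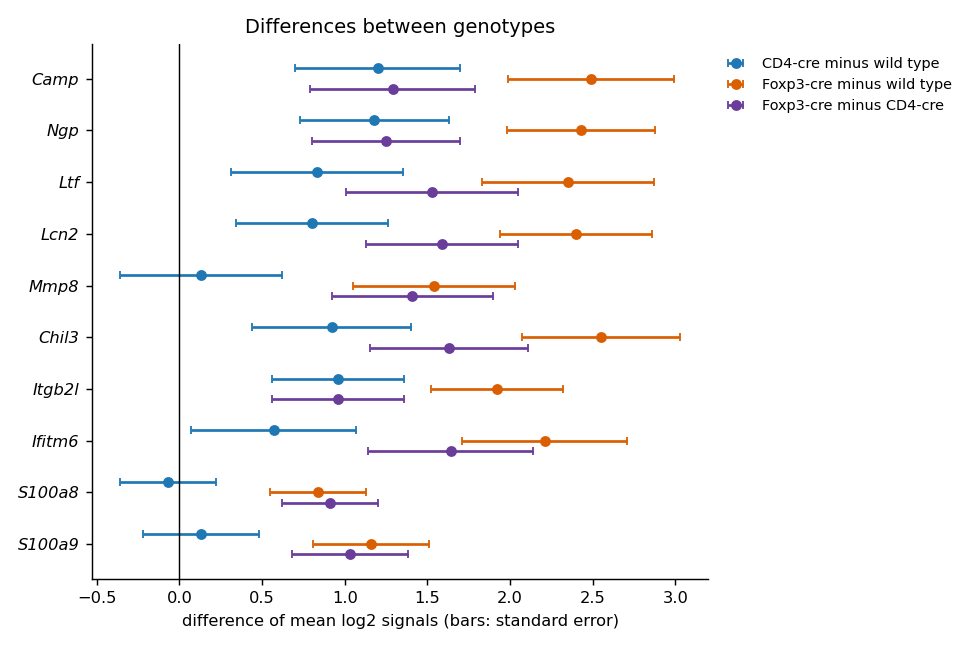
Difference of mean log2 signal between groups for each member, with its standard error, for each pair of groups. The Foxp3-cre differences from wild type run from 0.84 to 2.55 and the CD4-cre ones from -0.07 to 1.2.

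Foxp3-cre exceeded CD4-cre for all 10 members, by a median of 1.35 (2.55-fold) beside -0.015 for all genes tested, from 0.91 for S100a8 to 1.64 for Ifitm6. All Foxp3-cre arrays lay above all CD4-cre arrays for 1 member, Itgb2l, where 10.9% of all genes tested did so, 45.3% had a higher mean and 0.0134% were called in either direction. CD4-cre replicate 3 lay above Foxp3-cre replicate 1 for 9 of the 10. This comparison holds the arrays that chose the members and shares the Foxp3-cre arrays with the one above, so it is a description.

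The 10 genes varied strongly within each group, and together. Their within-group SD had a median of 0.72 and a range of 0.43 to 0.80, where the median of all genes tested was 0.14 and 2.19% of them reached the lowest SD of a member. Replicate 3 was the highest array of all 3 groups for 10 of 10 members, against 5.15% of all genes tested. The mean of the 10 genes was 8.16, 8.18 and 9.15 for wild type replicates 1, 2 and 3, 8.86, 8.65 and 9.97 for the CD4-cre group and 9.84, 10.47 and 11.14 for the Foxp3-cre group. By this mean the highest wild type array lay above CD4-cre replicates 1 and 2, and the highest CD4-cre array above Foxp3-cre replicate 1.

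The lowest array was less uniform. It was replicate 1 in the Foxp3-cre group for all 10 members and replicate 2 in the CD4-cre group for 9, and in wild type it was replicate 1 for 5 members and replicate 2 for the other 5. Itgb2l stood apart, with wild type deviations from the group mean of 0.28, -0.96 and 0.68. The -0.96 was on wild type replicate 2, the array with the actin difference of -1.53. Without that array Itgb2l differed from wild type by 0.48 in CD4-cre and 1.44 in Foxp3-cre, against 0.96 and 1.92 with it. The deviations of Itgb2l correlated with the mean of the other 9 members at r = 0.724 over the 9 arrays, where those of Ngp reached 0.924 and those of Lcn2 and Chil3 0.995.

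**Figure D3:**
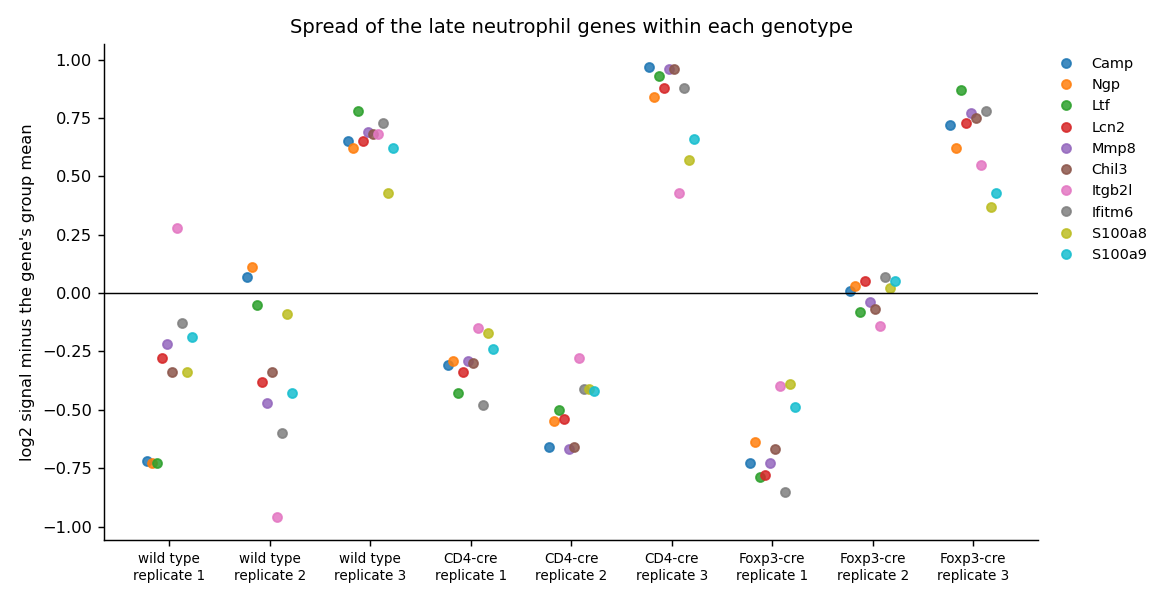
Deviation of each member's log2 signal from its own group mean, by array. Replicate 3 is positive for all 10 members in all 3 groups, and the wild type values of Itgb2l spread from -0.96 to 0.68.

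Genes outside the 10 were ranked by Pearson's r between their within-group deviations and those of the members' mean over the 9 arrays, a description that rests on shared arrays. The highest were Cd177, a neutrophil surface glycoprotein (r = 0.998), and Wfdc21, a small secreted protein (r = 0.997). They were followed by Mmp9 (gelatinase B), Tnfaip2, Hp (haptoglobin), Slc11a1 (a phagosomal metal transporter), Atf3 (a stress-induced transcription factor), Sorl1, Vcam1 (an adhesion molecule) and Fcgr3 (an IgG receptor), from 0.989 down to 0.974. Of these 10 genes, 9 had a higher mean in Foxp3-cre than in wild type, but only 3 had a higher mean in CD4-cre.

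Their differences from wild type were unlike even though their deviations were alike. Cd177 differed by 2.19 and Vcam1 by 2.26 in Foxp3-cre, near the granule members, while Mmp9 differed by 0.39 and Tnfaip2 by 0.07. In CD4-cre, Cd177 differed by 0.53 and Tnfaip2 by -1.65. The median r of all genes outside the members was -0.015.

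The other genes of the neutrophil programme were read by stage. The 4 primary granule genes, Mpo (myeloperoxidase), Elane (neutrophil elastase), Prtn3 (proteinase 3) and Ctsg (cathepsin G), were all called higher in Foxp3-cre than in wild type, where 3.36% of all genes tested were called and 1.69% called higher. Of all called genes 126 of 250 were higher, and with median-centred arrays 121 of 303. Mpo, Elane and Ctsg had wild type means of 4.84, 4.76 and 4.48, below the filter, and passed it through the knockout arrays, so nothing is read from the count beside that share. All 4 were also called with no filter. Their differences were 1.81 for Mpo (SE 0.35, limma adjusted p = 0.0289), 1.14 for Elane (SE 0.14, limma adjusted p = 0.00597), 1.33 for Prtn3 (SE 0.19, limma adjusted p = 0.0107) and 1.05 for Ctsg (SE 0.19, limma adjusted p = 0.0242). The call of Mpo was lost on leaving out any of 6 of the 9 arrays in turn (wild type replicate 3, each CD4-cre and Foxp3-cre replicates 1 and 3). Without wild type replicate 3, or without Foxp3-cre replicate 3, that of Ctsg was lost too, and with only the 2 groups compared in the fit 0 were called.

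In the mean of the 4 primary granule genes the order of arrays was not that of the late genes. This mean was 4.51, 5.0 and 4.99 in wild type and 5.66, 5.47 and 5.63 in the CD4-cre group. In the Foxp3-cre group it was 6.42, 5.83 and 6.25. Replicate 3 was thus the highest in none of the groups, narrowly so in wild type and CD4-cre. The 3 groups did not overlap in this mean. Nothing is read from that, since Mpo, Elane and Ctsg passed the filter through the knockout arrays. The share of all genes without overlap of the 3 groups was not counted. Single genes differed from the mean. For Elane replicate 3 was the highest in all 3 groups (4.91, 5.37 and 6.15), and for Prtn3 in wild type and CD4-cre. For Ctsg the knockouts overlapped, with CD4-cre replicate 1 (5.32) above Foxp3-cre replicate 2 (5.23). The median difference of the 4 genes between CD4-cre and wild type was 0.65, with 0 called by limma.

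Of 17 other granule and secreted proteins, 11 were tested. All 11 had a higher mean in Foxp3-cre than in wild type, with a median of 0.76, and 0 were called by limma. Cd177 came nearest in size at 2.19 (SE 0.51, limma adjusted p = 0.0527), with Wfdc21 at 1.66 (SE 0.48, limma adjusted p = 0.0937). In CD4-cre 3 of the 11 had a higher mean than in wild type, and the median was -0.12. With the replicate number as a block, 5 of the 11 were called in Foxp3-cre against wild type: Chil1, Wfdc21, Cd177, Anxa1 and Lyz2. That block called 354 of the 7436 genes tested in this comparison, 215 of them higher. The same share stands beside the block counts of the other lists in this comparison. Cd177 was also called with median-centred or re-quantiled arrays and with a trended, robust variance.

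Of 19 receptors and surface molecules of mature neutrophils, 12 were tested, with a median of 0.16 in Foxp3-cre and -0.64 in CD4-cre against wild type. Il1r2, the decoy receptor of interleukin-1, rose in Foxp3-cre by 1.10 (SE 0.17, limma adjusted p = 0.0141). That call was lost without Foxp3-cre replicate 3 and with only the 2 groups compared (limma adjusted p = 0.0769). In CD4-cre 9 of the 12 had a lower mean than in wild type and 0 were called. With the replicate number as a block, not taken as pairing here, 4 were called lower (Csf3r, Clec4d, Fcgr3 and Il1b). Among all 7436 genes tested that block called 67, 49 of them lower. Chosen after their values were seen, Csf3r, the receptor of the granulocyte growth factor G-CSF, was 7.91, 7.43 and 8.94 in wild type and 6.43, 6.31 and 6.94 in CD4-cre arrays, and Clec4d, a C-type lectin, was 6.44, 6.38 and 7.19 and then 4.39, 4.53 and 5.10. Both genes were lower in CD4-cre, the direction opposite to Ngp. Nothing more is read from genes chosen this way, since the share of all genes this low in CD4-cre was not counted. With the replicate number as a block, 3 of the 12 rose in Foxp3-cre (Fpr2, Il1r2 and Ceacam1) and 1 fell (Il1b).

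The 5 tested subunits of the phagocyte oxidase had a median of 0.12 in both knockouts against wild type and 0 calls, with Cybb at 1.36 (SE 0.44, limma adjusted p = 0.122) and Ncf1 at 1.05 (SE 0.31, limma adjusted p = 0.0971) in Foxp3-cre. With the replicate number as a block Ncf1 was called. The 7 tested granulocyte transcription factors had a median of 0.31 in Foxp3-cre and 0 calls, and Cebpb was at -0.52 (SE 0.18, limma adjusted p = 0.141) and Irf8 at 0.42 (SE 0.17, limma adjusted p = 0.186).

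**Figure D4:**
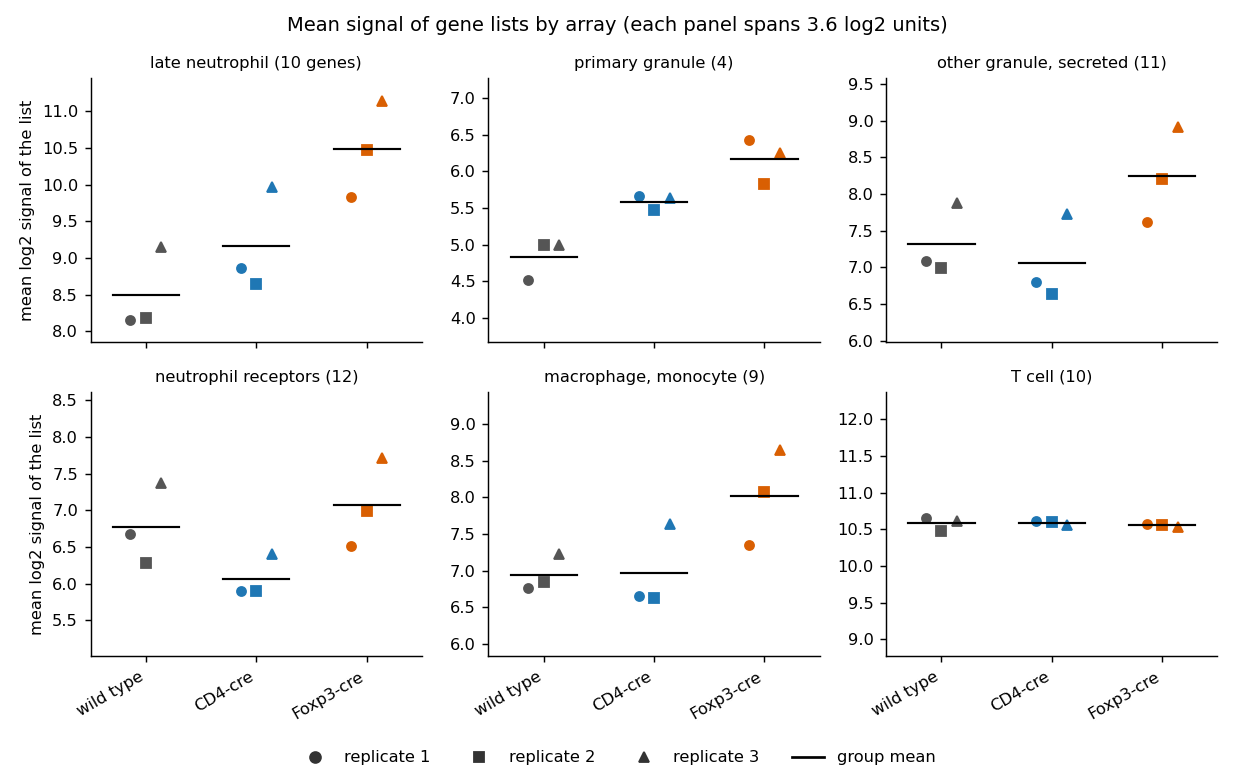
Mean log2 signal of gene lists on each of the 9 arrays. The late neutrophil genes and the macrophage list are highest on Foxp3-cre replicate 3, the primary granule list on Foxp3-cre replicate 1, and the T cell list spans 10.48 to 10.66.

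Some lists of markers of other cells moved with the members and others did not, and their part in the result was not tested. The 9 tested macrophage and monocyte genes averaged 6.76 to 7.22 in wild type, 6.62 to 7.64 in CD4-cre and 7.35 to 8.64 in Foxp3-cre arrays, with a median difference of 0.87 and 8 of 9 higher in Foxp3-cre than in wild type. C1qb, a complement component made by macrophages, was called, at 2.47 (SE 0.51, limma adjusted p = 0.0368), a call lost on leaving out any of 6 of the 9 arrays in turn (wild type replicates 1 and 3, CD4-cre replicates 1 and 2, Foxp3-cre replicates 2 and 3). The wild type mean of C1qb, 4.13, and the CD4-cre mean, 4.94, were below the filter, which the gene passed through its Foxp3-cre mean of 6.60. C1qb was also called with no filter, but not with the mean of its probe sets (1.46, limma adjusted p = 0.0604). With only the 2 groups compared the call was lost too (limma adjusted p = 0.0841). With the replicate number as a block 4 of the 9 were called higher: C1qa, C1qb, Lyz1 and Vcam1. Adgre1, C1qc, Marco, Mertk, Cd14 and Fcgr1 had probe sets below the filter. The 4 tested eosinophil, basophil and mast cell genes had a median of 0.64, with Prg2, eosinophil major basic protein, called at 1.42 (SE 0.25, limma adjusted p = 0.0229). The Prg2 call was lost without wild type replicate 3 and with only the 2 groups compared (limma adjusted p = 0.0841).

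The remaining lists were mixed. The medians in Foxp3-cre against wild type were 0.57 for 5 B cell genes, 0.35 for 4 erythroid genes, -0.08 for 2 platelet genes, -0.02 for 5 plasma cell genes, 0.02 for 2 dendritic genes and -0.09 for 10 T cell genes, with 0 called in each. Foxp3-cre replicate 1 stood apart in the B cell list, with a mean of 8.27 against 9.57 and 9.77 on the other Foxp3-cre arrays. Without it 3 of the 5 B cell genes (Ms4a1, Cd79a and Blk) and erythroid Slc4a1 were called higher. Leaving it out called 213 of all 7436 genes tested, 134 of them higher. Leaving out the lowest array raises the B cell difference by itself, so nothing is read from those calls. Of these lists, the 2 genes with the largest differences were Ms4a1 (1.06) and Blk (0.65) for B cells and Slc4a1 (0.73) and Tfrc (0.35) for erythroid cells. They were Itga2b (-0.13) and Treml1 (-0.02) for platelets, Igha (0.69) and Jchain (-0.60) for plasma cells, Flt3 (0.12) and Itgax (-0.07) for dendritic cells and Cd28 (0.30) and Lat (-0.14) for T cells. Among 6 NK cell genes the median was -0.40 and Nkg7, a cytotoxic granule protein, fell by 0.58 (SE 0.10, limma adjusted p = 0.0235). The Nkg7 call was lost on leaving out any of 5 of the 9 arrays in turn (wild type replicate 3, CD4-cre replicate 1 and each Foxp3-cre array). With only the 2 groups compared it was lost too (limma adjusted p = 0.0762). With the replicate number as a block, Klrk1 was called lower beside Nkg7. Among 11 regulatory T cell genes the median was 0.06 and Foxp3 was called; Itgae, an integrin chain, was also called, higher, with the replicate number as a block, with median-centred or re-quantiled arrays and with a trended, robust variance. The 18 cell cycle genes had a median of 1.03 with 8 called higher, where 1.69% of all genes tested were called higher. By smallest limma p they were led by Kif11 (1.27), Ube2c (1.25), Nusap1 (1.23) and Top2a (1.2). Their highest array was Foxp3-cre replicate 1, the lowest Foxp3-cre array of all late neutrophil members. Without wild type replicate 3 or without Foxp3-cre replicate 3, 0 cell cycle genes were called, and with the replicate number as a block 16 were. With only the 2 groups compared, 0 cell cycle genes were called too, in a fit that called 16 of all 7436 genes.

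Position on the chromosomes was read from the RefSeq gene order (GRCm38.p6). S100a8 and S100a9 are adjacent, with 0 annotated genes between them, while 18 lie between Camp and Ngp and 25 between Ngp and Ltf. The 18 nearest tested genes on either side of the members that are not members themselves differed between Foxp3-cre and wild type by -0.46 to 0.38, with a median of -0.03. limma called 0 of them, where 3.36% of all genes tested were called. From 0 to 51 annotated genes lay between a member and such a neighbour, the most between S100a9 and Lce1h. In CD4-cre against wild type 1 was called, where 0.659% of all genes tested were, and nothing is read from a single call. It was Dennd2d, with 4 annotated genes between it and Chil3, at -0.61 (limma adjusted p = 0.0115). In Foxp3-cre against wild type the lowest of these neighbours was Als2cl and the highest Ifitm3, a relative of Ifitm6.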

How the data were processed

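RNA of 9 samples was measured on Affymetrix arrays, 1 per sample. The authors' deposited log2 signals, made with RMA per the submitters' processing notes (version not given in the sources used here), were used as deposited. RMA removes any shift common to all genes. Of 22690 probe sets, 64 are controls, 20380 carry 1 gene symbol by the platform annotation, 691 several and 1555 none here. Symbols were checked against RefSeq (GRCm38.p6), where 20351 matched. Each gene was represented by its probe set with the highest mean, and signals of different probe sets were not set against each other. The 7436 genes at or above the 40th percentile went into the test, by limma 3.58.1 under R 4.3.3 (two-sided, moderated by eBayes, 6 residual and 3.37 prior degrees of freedom, 3 contrasts, Benjamini-Hochberg threshold 0.05), after a check on simulated data. Precision is limited by having 3 arrays a group (median SE 0.11).

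The members and lists were chosen with earlier results of these data known. Beside the members and the primary granule genes, each list gives its called genes (at most 4 per contrast) or the 2 largest differences, and the 10 genes most like the members are named. Same-numbered arrays of Foxp3-cre and wild type deviated together over all genes (r = 0.25, 0.20 and 0.25), so the numbers were taken to pair them and counts with the replicate number as a block are given where they moved by over 1.5 times. Pairs with CD4-cre gave -0.03 to 0.49, so the numbers were not taken to pair that group. Among arrays of the other groups, however, 7 of the 9 arrays correlated best with one of their own number. Unless said otherwise, SE and adjusted p are from the fit without the block. The 18 alternatives, 9 of which leave out 1 array, are described in the closing section.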

Additional observations from a re-analysis of the deposited data

Results flagged for a closer look

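Foxp3 differed between the knockouts: its Foxp3-cre minus CD4-cre difference was -6.70, which is also the test of whether the 2 changes against wild type differ (limma adjusted p = 1.48e-07), and it was the 1 gene called in that contrast, 0.0134% of those tested. The 3 Foxp3-cre signals of Foxp3 were near the bottom of the scale, where a difference of log2 signals can understate the change. The number of genes called in that contrast was 72 without wild type replicate 2, 96 with the replicate block and 812 with array weights.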

How the results depend on the processing

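All 10 members had a higher mean in Foxp3-cre than in wild type under each of the 18 alternatives, with a median of 1.87 to 2.69 when 1 array was left out and 1.97 to 2.28 otherwise. In CD4-cre against wild type, the median of 0.81 ran from 0.36 to 1.17 with 1 array left out and was 0.16 with array weights. The replicate block, for numbers not taken as pairing there, called 1 member, Ngp (limma adjusted p = 0.045); 0 were called with any array left out. Differences changed sign in that comparison: with array weights Mmp8 was -0.54, Ifitm6 -0.14 and S100a9 -0.45; without wild type replicate 2, Mmp8 was -0.10 and S100a9 -0.09; without CD4-cre replicate 3, Mmp8 was -0.35 and S100a9 -0.21. With 1 array left out Mmp8 spanned -0.35 to 0.48, S100a8 -0.36 to 0.14 and S100a9 -0.21 to 0.44. S100a8 became 0.14 without wild type replicate 3, 0.01 without CD4-cre replicate 1 and 0.13 without CD4-cre replicate 2. The cause was not tested.

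Counts of list genes called moved more. For Foxp3-cre against wild type, 17 became 39 with the replicate block, 45 with array weights, 1 with only the 2 groups compared and 5 to 22 with 1 array left out. For CD4-cre against wild type, 0 became 5 with the block (Elane higher, Csf3r, Clec4d, Fcgr3 and Il1b lower), 35 with array weights, 1 with median-centred arrays, 1 with only the 2 groups compared and 0 to 2 with 1 array left out. For Foxp3-cre against CD4-cre, 1 became 25 with the block, 46 with array weights, 2 with quantile normalization, 2 with only the 2 groups compared and 1 to 2 with 1 array left out. Over all genes, with 1 array left out, the calls for CD4-cre against wild type ran from 4 to 191 (49 as reported). They ran from 71 to 567 (250) for Foxp3-cre against wild type and from 1 to 72 (1) between the knockouts. In the same order, the replicate block gave 67, 354 and 96, and array weights gave 1298, 1539 and 812. The member counts rest on 3 arrays per group whose replicate 3 stood highest throughout.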
